A study of Mus musculus with 4 samples.

Results

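The regions described here are the SOX2-bound stretches of the mouse cortex that lie in gene deserts. Peaks of 3 SOX2 ChIP-seq libraries were pooled, any that overlapped by 1 bp or more were joined into one region, and a region with a peak from each of the 3 libraries was called reproducible. Of 9334 reproducible regions, 1581 (16.9%) had their centre over 50 kb from the span of every protein-coding gene, and these are called far regions below. The rule uses position and recurrence and sets no limit on strength of its own. Stronger peaks recur more often, however, so the strength of the regions is not independent of the rule. The same demand for recurrence was made of regions near genes. The remaining 7753 regions comprised 1749 that lay outside genes at up to 50 kb, 4157 that lay inside genes and 1847 within 1 kb of a gene end.

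ChIP-seq uses an antibody to recover the DNA that a protein occupies, and that DNA is sequenced beside unselected DNA, the input. The 3 immunoprecipitated (IP) libraries and the 1 input library came from cortex of 2-month-old male C57BL/6 mice described as wild-type, with chromatin sheared to 200 to 600 bp. The series title concerns deletion of SOX2 from astrocytes and brain injury, and no sample used here carries a label of either. Every sample, the input too, has a label field naming SOX2 as a transduced factor, which was not used for grouping. The labels do not say whether the IP libraries came from separate mice. Spreads and p-values here therefore concern these libraries alone, and their spread could be technical. The exact permutation test used below gives p = 0.25 whenever all 3 library differences share a sign, whatever their spread. In whole cortex, fewer cells of a type and less binding per cell cannot be told apart.

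SOX2 is a transcription factor of the SOX family, whose members bind short sequences such as ACAATG and ACAAAG through an HMG box and bend the DNA. It keeps neural stem cells undifferentiated and is still made by astrocytes of the adult cortex. Factors of this kind often bind enhancers, stretches of DNA that act on a gene from a distance, and genes of development are often flanked by long stretches without other coding genes. The nearest gene is therefore given below as a position and not as a target. Some regions lie nearly as close to a second gene that is not always named. For example, the region 400 kb from Spred2 lies 505 kb from Meis1, and one 50.4 kb from Ednrb lies 59.3 kb from Slain1.

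The label "far from genes" holds for protein-coding genes alone. Only 394 of the 1581 far regions (24.9%) were also over 50 kb from every noncoding gene and pseudogene of the RefSeq table, and 366 (23.1%) lay inside the span of a long noncoding RNA (lncRNA) gene. Of the far regions, 51 (3.23%) overlapped the start window of an lncRNA gene, from 250 bases before to 50 bases after its start. Letters of far regions could be read here only where the regions overlap such windows. The sequences of 4 of these windows are shown because each lies at a strong region. They are RefSeq sequences of GRCm38.p6, the coordinates of mm10, written 5′ to 3′ on the strand of the gene. Capitals mark the motif ACAATG, whose reverse complement is CATTGT, and the motif ACAAAG, which reads as CTTTGT on the other strand.
2900052N01Rik, plus strand, chr9:46913353-46913652: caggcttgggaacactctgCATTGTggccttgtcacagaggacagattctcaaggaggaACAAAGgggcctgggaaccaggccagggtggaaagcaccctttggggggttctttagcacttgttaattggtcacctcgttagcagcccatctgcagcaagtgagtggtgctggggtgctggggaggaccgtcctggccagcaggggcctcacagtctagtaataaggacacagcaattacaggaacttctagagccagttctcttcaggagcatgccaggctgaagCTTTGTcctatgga
Gm20083, plus strand, chr7:73185351-73185650: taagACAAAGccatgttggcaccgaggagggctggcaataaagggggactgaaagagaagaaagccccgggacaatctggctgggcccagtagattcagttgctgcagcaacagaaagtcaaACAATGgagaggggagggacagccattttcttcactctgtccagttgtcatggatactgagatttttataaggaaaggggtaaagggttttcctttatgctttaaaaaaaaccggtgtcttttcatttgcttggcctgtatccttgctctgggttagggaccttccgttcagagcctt
Celrr, plus strand, chr1:121087155-121087454: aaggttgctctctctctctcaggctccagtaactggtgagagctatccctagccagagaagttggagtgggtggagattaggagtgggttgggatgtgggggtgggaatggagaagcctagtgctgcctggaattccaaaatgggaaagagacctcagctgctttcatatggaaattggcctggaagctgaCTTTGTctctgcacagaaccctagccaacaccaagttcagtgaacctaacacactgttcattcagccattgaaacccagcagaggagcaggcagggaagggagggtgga
C130071C03Rik, plus strand, chr13:83732243-83732542: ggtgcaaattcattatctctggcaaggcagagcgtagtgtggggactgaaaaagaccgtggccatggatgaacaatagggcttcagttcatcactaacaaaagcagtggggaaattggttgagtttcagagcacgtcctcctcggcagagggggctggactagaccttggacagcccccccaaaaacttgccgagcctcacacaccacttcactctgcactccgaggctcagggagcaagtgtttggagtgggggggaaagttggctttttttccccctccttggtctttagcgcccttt

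The region at 2900052N01Rik held 38.5, 36.0 and 35.6 normalized tags in IP libraries 1, 2 and 3, where a normalized tag is a sequenced read of the peak scaled to a library of 10000000 reads. It covered bases 1 to 126 of the printed window, and 2 of the 3 capitalised matches lie inside it. The region at Gm20083 averaged 25.5 ± 3.13 tags (SD, n = 3) and covered bases 1 to 198, with both matches inside. The one at Celrr held 23.4, 27.7 and 17.4 tags and covered bases 76 to 300, with its 1 match inside at the centre of the region. C130071C03Rik has no match in its window, while its region, over bases 1 to 156, held 21.2, 19.1 and 19.8 tags. Windows at the weaker regions of 4930452A19Rik and C030018K13Rik, with means of 18.2 and 17.1 tags, were chosen by the same rule but are not printed. Neither had a match in the bases that its region covered.

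Start windows at far regions held the SOX letters more often than other start windows. Either motif, on either strand, was in 28 of 51 windows at far regions (54.9%, 1 window a region), against 473 of 1445 windows at the other reproducible regions (32.7%). Among lncRNA genes alone, windows at other reproducible regions had a match in 51 of 143 (35.7%), and lncRNA windows without any reproducible region in 34.2% of 9284. Over all 27025 genes with a window, the share was 29.0%. Base composition differed between these sets. Median GC content was 49.3% in windows at far regions, 59.7% at the other regions and 57.3% in the lncRNA windows among the latter. It was 48.3% in lncRNA windows without a region and 52.7% over all genes. The part of base composition in the shares was not tested. Where a region covered at least 100 bases, the covered bases held a match in 22 of 40 windows at far regions (55.0%) and in 382 of 1264 at other regions (30.2%). The motifs ACAATG and ACAAAG were each in 17 of the 51 windows. A match is a description of letters and no sign of a bound site.

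The libraries held 36330529, 32492927 and 41875666 tags, and 2824, 2827 and 2595 of their peaks (15.9% to 16.3%) were far from genes. IP library 3 was the deepest and had the lowest normalized tags in 940 of the 1581 far regions (59.5%), and its peaks were called with a cap of 2 tags per bp in place of 1. Classes were therefore compared within each library, and the values without each library stand beside the results. Far regions agreed between libraries about as well as the rest did, with Pearson correlations of log2 normalized tags of 0.835 to 0.839 over the 1581 far regions and 0.832 to 0.839 over the rest. The highest library exceeded the lowest by a median of 1.4 times in far regions and by at least 2 times in 73 of them (4.62%). In 50 far regions (3.16%) the 3 peaks were joined in a chain without sharing any one base, against 230 of the rest (2.97%). Not every pair of libraries overlapped in those far regions.

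The median far region had slightly more tags than the median of the rest in every library. The median far region held 8.53, 8.31 and 7.16 normalized tags in IP libraries 1, 2 and 3, against 7.98, 8.00 and 6.69 in the rest. Each library had the far class above the rest, and the ranges of the classes overlap across libraries because library 3 is low in both. The difference averaged 0.443 ± 0.122 tags (SD, n = 3 libraries), a ratio of 1.06. It was 0.27 ± 0.0424 without IP library 1, 0.395 ± 0.219 without library 2 and 0.295 ± 0.0212 without library 3 (SD, n = 2 each). It was also smaller, at 0.27 to 0.277 tags, without the far and other regions that lack a base common to all libraries, with peaks of at least 8-fold, with peaks that share 50% of their lengths, and with regions of at least 2 libraries. Normalized tags move in steps of 1 read scaled to library depth, and all these differences amount to very few such steps. An exact permutation test that exchanged the classes within libraries gave p = 0.25, two-sided, which is the smallest p that 3 libraries allow, so the design cannot pass a threshold of 0.05. Enrichment over the input went the same way, with median folds of 16.3, 16.2 and 13.4 in far regions and 15.0, 15.2 and 11.8 in the rest (difference 1.31 ± 0.283, n = 3, exact p = 0.25). Without each library in turn, it was 1.21 to 1.34. With peaks of at least 8-fold it was 0.28 ± 0.646 and higher in far regions in only 2 of 3 libraries, and with the stronger peaks by score it was 0.637 ± 0.169.

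The contrast was largest against gene ends and small against other intergenic DNA. Far regions exceeded regions at gene ends by 0.81 ± 0.255 normalized tags and 2.77 ± 0.245 in median fold, and regions outside genes at up to 50 kb by 0.27 ± 0.04 tags and 0.77 ± 0.333 in fold (SD, n = 3, exact permutation p = 0.25 for each). The median tags of those intergenic regions were 8.26, 8.00 and 6.93, below the far medians by the smallest step possible in each library. The SD of 0.04 therefore follows library depth and does not measure a spread of binding. Of far regions, 20.3 ± 1.54% were among the strongest 10% of the peaks of their library, against 14.6 ± 1.13% of regions at gene ends and 19.8 ± 1.29% of the intergenic regions nearer to genes. The focus ratio, the fraction of tags placed as the peak centre predicts, averaged 0.735 in far regions and 0.745 in the rest, a difference of -0.0103 ± 0.00651 (SD, n = 3, exact p = 0.25), lower in far regions in all 3 libraries and -0.006 ± 0.00283 without library 1 (n = 2).

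**Figure D1:**
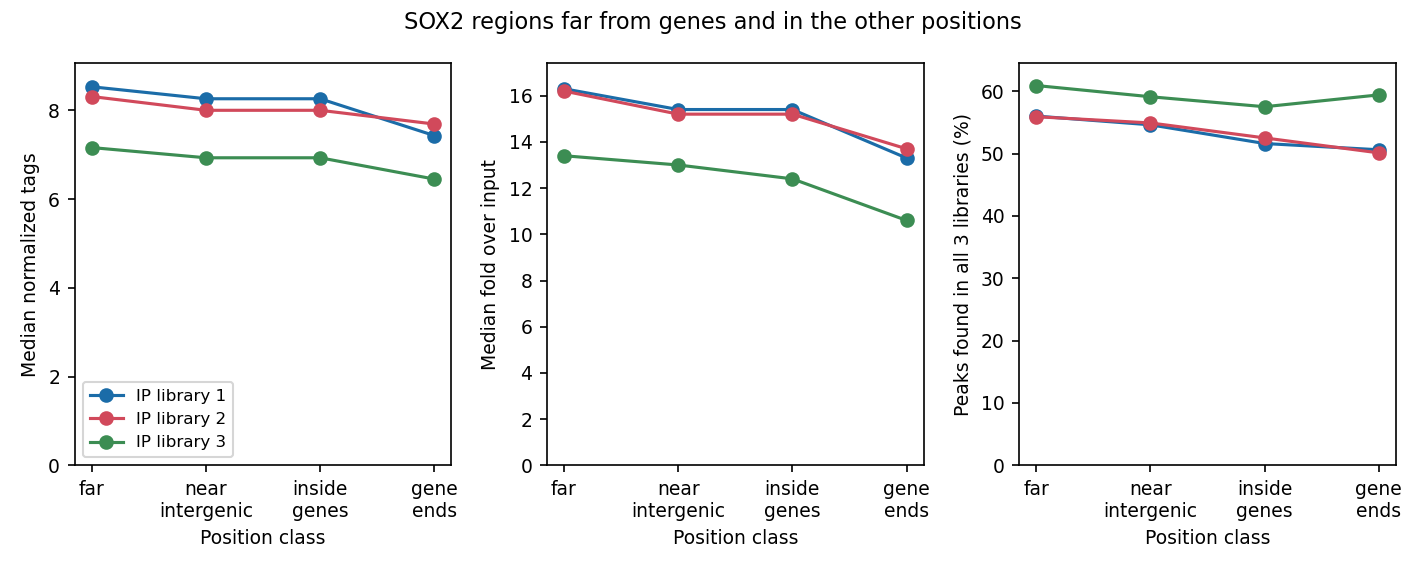
Median normalized tags (left), median fold over input (middle) and the share of all peaks of a library that fell in a region of all 3 libraries (right, percent) by position class. Points are the 3 IP libraries and lines join the same library; far regions are the highest point of each line in all panels.

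A larger share of far peaks than of other peaks belonged to a reproducible region. Such a region needs a peak from all 3 libraries, so the same 1581 far regions are counted in each library. The 3 shares are therefore not independent, and their SD and p-value do not measure replication. Of the far peaks, 56.0%, 55.9% and 60.9% belonged to a reproducible region, against 52.0%, 52.4% and 58.3% of the other peaks, a difference of 3.37 ± 0.69 percentage points (SD, n = 3, exact permutation p = 0.25). It was 2.07 ± 1.22 points without library 2 (n = 2). The difference was 0.289 ± 0.645 points when peaks had to share 50% of their lengths, and 0.467 ± 0.99 points when noncoding genes counted too, higher for far peaks in 2 of 3 libraries in each case. Among merged regions, the far share was 15.0% of those found in 1 library, 15.1% of those in 2 and 16.9% of those in 3. Strength moves with recurrence, so peaks were also compared within 5 equal classes of strength. The difference was 0.435 ± 2.2 points in the weakest class, 2.06 ± 0.929 and 2.33 ± 1.29 in the next, then 0.743 ± 1.73, and 1.37 ± 0.85 points in the strongest (n = 3, exact p of 0.25 to 0.75). In the weakest and the fourth class the difference was smaller than its spread between libraries.

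Single far regions spanned a wide range of strength and distance. The mean over libraries ran from 3.99 to 40.8 normalized tags with a median of 7.9, against a median of 7.58 in the rest. Means of at least 10 tags were reached by 501 far regions (31.7%) and 28.2% of the rest, and means of at least 20 tags by 73 far regions (4.62%) and 3.84% of the rest. Of the 100 strongest reproducible regions, 16 were far. The distance to the nearest protein-coding gene had a median of 141 kb and reached 2082 kb. Of the far regions, 1037 lay over 100 kb away, 544 over 200 kb, 131 over 500 kb and 27 over 1000 kb. Distance and mean tags were nearly unrelated across the 1581 far regions (Pearson 0.016 on the log2 scale, Spearman 0.026), given as a description since regions share the libraries.

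The strongest far regions stood beside genes of varied function. The strongest was 322 kb from Plod2, a lysyl hydroxylase of collagen synthesis, with 48.7, 41.9 and 31.8 normalized tags. A region 118 kb from Nufip1 and 160 kb from Tsc22d1, a leucine zipper regulator, held 36.9, 40.6 and 37.7 tags, with the libraries close together. The region 56.2 kb from Pabpc6, in the gap that ends at the RNA-binding protein gene Qk, held 33.6, 38.2 and 27.2 tags. One 242 kb from Plpp3, a lipid phosphatase gene, held 30.8, 40.9 and 25.3 tags, and here library 2 stood above the others. Beside Phyhipl the order differed, with 43.2, 27.4 and 33.7 tags at 87.4 kb. The remaining strongest regions lay near Tcf4, a bHLH factor gene, Rnd3, Gm4791, Wac, Ednrb, Tmem161b, Btg1, an antiproliferative gene, St8sia2, a sialyltransferase gene, Zfp608 and Flrt2, an adhesion protein gene, with means of 26.4 to 38.9 tags.

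**Figure D2:**
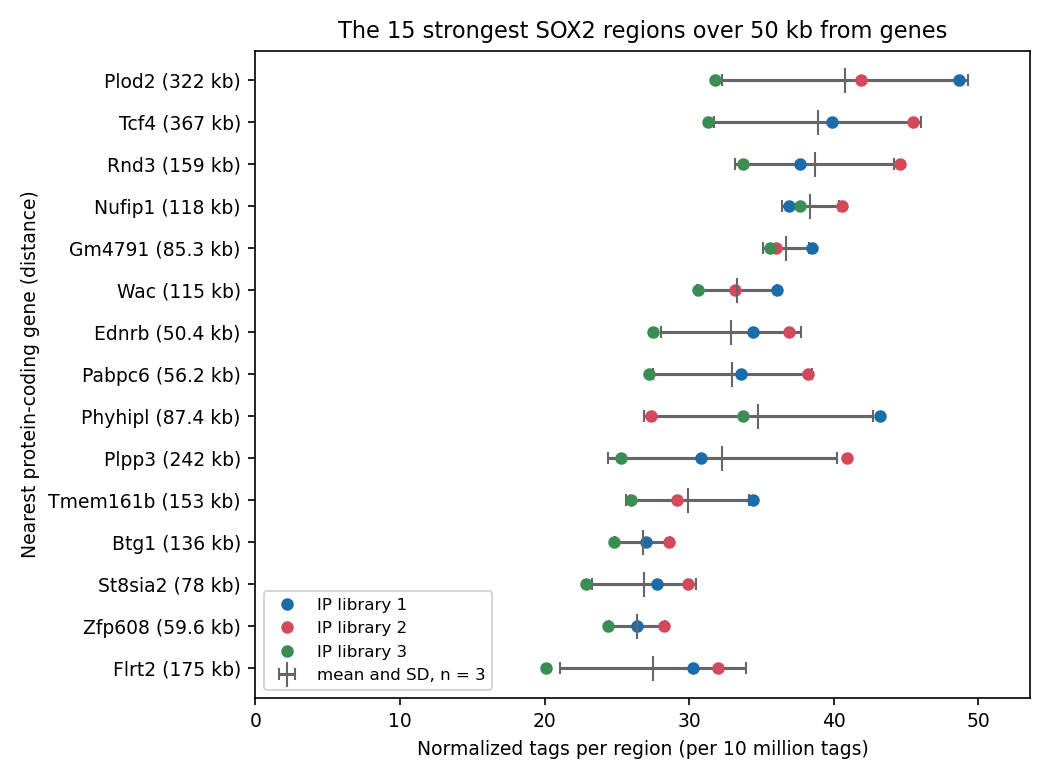
Normalized tags (x axis) of the 15 far regions with the highest mean rank, by nearest protein-coding gene and distance (y axis). Points are the IP libraries and bars the mean and SD (n = 3); the lowest single value is 20.1 tags near Flrt2 and the highest 48.7 near Plod2.

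At the limit of 50 kb, the regions just inside lay 50.11 kb from Tle3, 50.16 kb from Stmnd1 and 50.18 kb from Cyp1b1, with means of 8.42, 9.71 and 11.0 normalized tags. Just outside were regions 49.97 kb from Pctp, 49.88 kb from Apod and 49.77 kb from Stmnd1, with means of 17.4, 8.64 and 7.27 tags.

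Of 36 astrocyte markers, 8 (22.2%) were the nearest gene of at least 1 far region, beside 4.11% of all protein-coding genes (899 of 21887). A gene can be nearest only if it borders a gap of over 100 kb, and the 8 were among 17 markers that do (47.1%), beside 19.0% of the 4744 such genes. Genes nearest to a far region are referred to as called. With noncoding genes counted too, 2 markers (5.56%) were called beside 1.33% of all genes, and at over 100 kb 5 markers (13.9%) beside 2.66%. The 25 far regions of the 8 markers had a median of 11.4 normalized tags, beside 7.9 over all far regions. The gaps beside these markers had a median length of 291 kb, beside 245 kb for all genes that border one. Far regions were found beside Ednrb, the endothelin receptor B gene, Slc1a3, which encodes the glutamate transporter GLAST, Sox9, a factor that drives glial fate, Glul, the glutamine synthetase gene, Id4, an inhibitor of bHLH factors, and Gja1, the gene of the gap junction protein connexin 43.

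The gap between Slc1a3 and Ranbp3l was among the densest of those described here, with 38.2 far regions per Mb of its far sequence. It is 257 kb long and, over 50 kb from genes, held 6 far regions and no region of only 1 or 2 libraries. The strongest, 105 kb from Slc1a3, held 26.4, 25.9 and 26.7 normalized tags, nearly equal in the 3 libraries. A second, 70.5 kb away, held 12.4, 18.5 and 14.3 tags, and both lie inside the lncRNA gene Gm31340. The next in strength, at 155 kb, held 12.7, 17.5 and 13.9 tags. The other 3 had means of 4.27 to 7.77.

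Beside Gja1, 13 far regions were spread over the 1093 kb to Hsf2. The strongest pair lay 503 and 509 kb from Gja1, with 20.4, 16.6 and 22.4 tags in one and 20.4, 23.1 and 13.1 in the other. The region nearest to Gja1, at 110 kb, was weak with a mean of 5.05 tags, and the next, at 136 kb, held 13.2, 16.6 and 16.0 tags. The strongest regions thus lay in the middle of the gap, with a median of 9.53 tags over the 13 regions.

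Glul had 4 far regions in its gap of 291 kb to Zfp648, and 3 of them were strong. One 68.7 kb from Glul held 25.3, 24.6 and 22.7 tags. Another at 193 kb held 19.5, 18.8 and 17.9 tags, and the one at 230 kb, nearer to Zfp648, held 31.7, 25.9 and 21.3 tags. The Id4 gap, of 1013 kb from Rnf144b, held 7 regions, 4 of them inside the lncRNA gene A330033J07Rik that ends beside Id4. The strongest of these, 134 kb from Id4, had 21.7, 28.6 and 19.6 tags.

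Of 19 SOX genes, 9 (47.4%) were the nearest gene of a far region, 9 of the 11 that border a gap (81.8%, beside 19.0% of all such genes), in gaps with a median length of 620 kb. The part of gap length in these shares was not tested. With noncoding genes counted too, 2 of the 19 were called (10.5%), and at over 100 kb 8 were (42.1%). Sox9 stood next to the strongest of them, a region 280 kb away on the side of Gm11677 with 25.6, 26.2 and 24.1 normalized tags. On its other side, 8 regions lay within the 457 kb to Slc39a11, with means of 4.39 to 14.4 tags, 4 of them inside the lncRNA gene 2610035D17Rik. Sox6, whose product acts in glial and neuronal differentiation, had a region at 87.8 kb with 19.0, 16.9 and 14.1 tags, and Sox14 one at 118 kb with 11.8, 11.4 and 8.6.

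The gene of SOX2 itself was flanked by far regions on both sides, weaker than the strongest ones beside Sox9 and Slc1a3. Of 9 regions in the 1102 kb from Sox2 to Atp11b, none lay closer than 280 kb to Sox2, and their means ran from 4.44 to 11.0 tags. The strongest, 689 kb away, held 13.5, 10.8 and 8.6 tags. On the side of Dnajc19, regions 204 and 208 kb from Sox2 held 7.98, 11.4 and 10.3 tags and 9.08, 9.54 and 8.12 tags. The median over the longer gap was 8.59 tags, close to the 7.9 of all far regions.

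**Figure D3:**
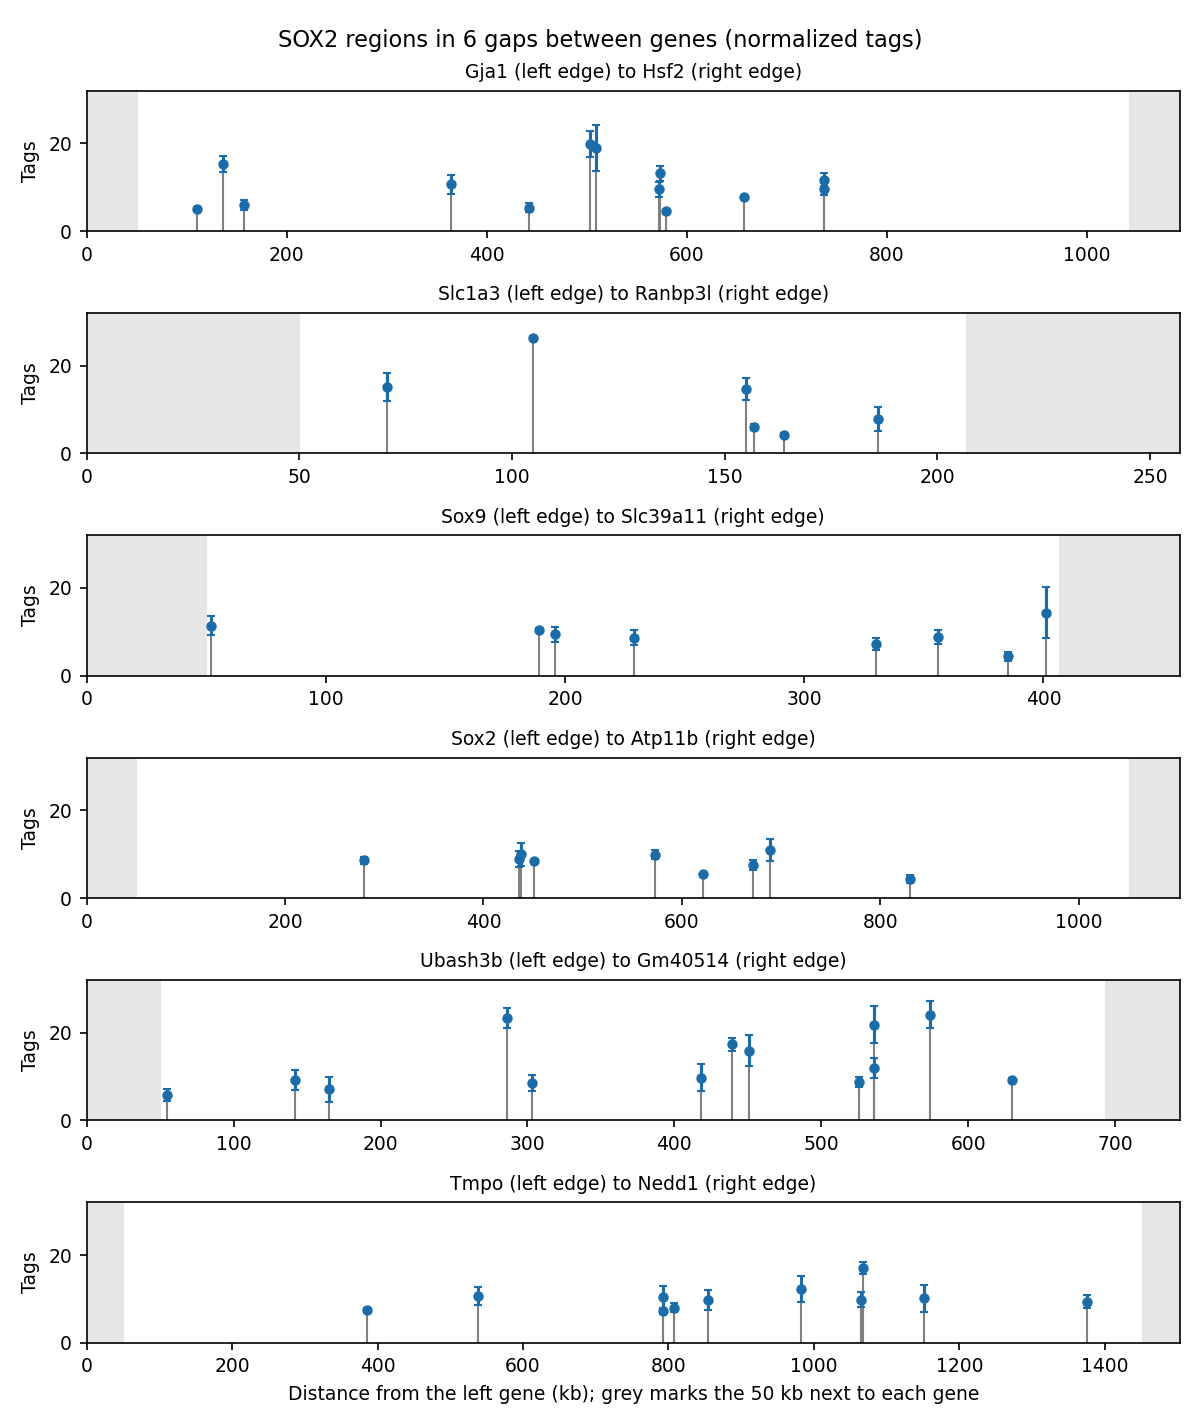
Far regions in 6 gaps between protein-coding genes, by distance from the gene at the left edge (x axis, kb) and normalized tags (y axis, mean and SD, n = 3). Grey marks the 50 kb next to each gene, where no far region can lie; the tallest stems are 26.3 tags in the Slc1a3 gap and 24.1 tags in the Ubash3b gap, and the Sox2 gap stays at or below 11.0.

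Of 34 neural stem and progenitor genes, 12 (35.3%) were nearest to a far region, beside 4.11% of all genes. They are 12 of the 21 that border a gap (57.1%), beside 19.0% of all such genes. The gaps beside these genes had a median length of 424 kb, beside 245 kb for all genes that border one. With noncoding genes counted too, 5 were called (14.7%, beside 1.33% of all genes), and at over 100 kb 6 were (17.6%, beside 2.66%). The strongest were beside Ptprz1, a receptor phosphatase of glia, with 23.1, 23.7 and 18.9 tags at 80.7 kb, and beside Nr2f1 and Tnc, a nuclear receptor gene and the tenascin C gene, with means of 12.0 and 12.1. Among nuclear factor I, RFX, POU and bHLH genes, 7 of 22 (31.8%; 63.6% of those at a gap) were called, including Tcf4, Id4 and Pou3f3, which had 17.9, 20.6 and 14.8 tags at 157 kb. Their gaps were long, with a median of 914 kb. With noncoding genes counted too, 1 of them was called (4.55%), and at over 100 kb 6 were (27.3%).

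Signalling and guidance genes were called at 29.4% to 42.9% of the members that border a gap, beside 19.0% of all such genes. Over all protein-coding genes 4.11% were called. Gaps beside these lists had median lengths of 277 to 687 kb, beside 245 kb for all genes that border one, and their part was not tested. The Notch pathway had 3 of 27 genes, led by the ligand gene Jag1 with 28.9, 24.0 and 19.8 tags at 316 kb, then the coactivator gene Maml3 and the effector gene Hes1. Of 25 FGF and EGF pathway genes, 5 were called, among them the inhibitor genes Spred2, with 30.8, 26.2 and 21.3 tags at 400 kb, and Spry2, and the phosphatase gene Dusp6. The Wnt pathway had 5 of 39, led by the receptor gene Fzd1 with 22.2 ± 3.4 tags (SD, n = 3) at 258 kb, followed by the factor genes Tcf7l2 and Lef1, and without IP library 3 the count was 8. Axon guidance genes had 11 of 31, the strongest at Epha3, Sema6d and Unc5d with means of 16.0, 14.1 and 13.3. Developmental transcription factors of gene-poor surroundings had 15 of 50, led by Zfhx3, Mef2c and Irx5. With noncoding genes counted too, the Notch and Wnt lists had 1 called gene each, the FGF and EGF list had 2, axon guidance 7 (22.6%) and the developmental factors 9 of 50. At over 100 kb the counts were 1 for Notch, 3 for Wnt, 5 for FGF and EGF, 10 for axon guidance and 13 for the developmental factors. Of all genes, 1.33% were called with noncoding genes counted and 2.66% at over 100 kb.

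Of 26 cadherins and protocadherins, 8 were called, 34.8% of those at a gap although their gaps had a median of 3152 kb. Cdh11 was the strongest with 19.3, 22.2 and 20.5 tags at 487 kb. Neuron markers had 6 of 32 (30.0% at a gap), with Gria2 and Gria1, glutamate receptor subunit genes, at means of 13.4 and 13.5 and Grin2b at 7.18. Oligodendrocyte genes had 2 of 24 (Pdgfra and Bcas1; 28.6% at a gap) and endothelial and mural genes 3 of 25 (Kdr, Cdh5 and Sox17; 27.3%). Hepatocyte genes, which cortex should not use, had 2 of 30 (Arg1 and Foxa2), or 28.6% of the 7 at a gap, and 1 of 30 without IP library 2. That share too lies above the 19.0% of all genes at a gap, and close to the 29.4% of the Wnt list. Microglia markers had 4 of 23, which were 4 of only 6 at a gap (66.7%), led by Sall1, Ly86 and Ptprc. Of 1465 olfactory and vomeronasal receptor genes, 3 were called, 2.86% of the 105 at a gap. With noncoding genes counted too, these 7 lists had 3 (cadherins), 3 (neuron), 0 (oligodendrocyte), 1 (endothelial and mural), 0 (hepatocyte), 1 (microglia) and 2 (olfactory and vomeronasal) called genes. At over 100 kb the counts were 8, 3, 1, 3, 1, 3 and 0 in the same order.

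**Figure D4:**
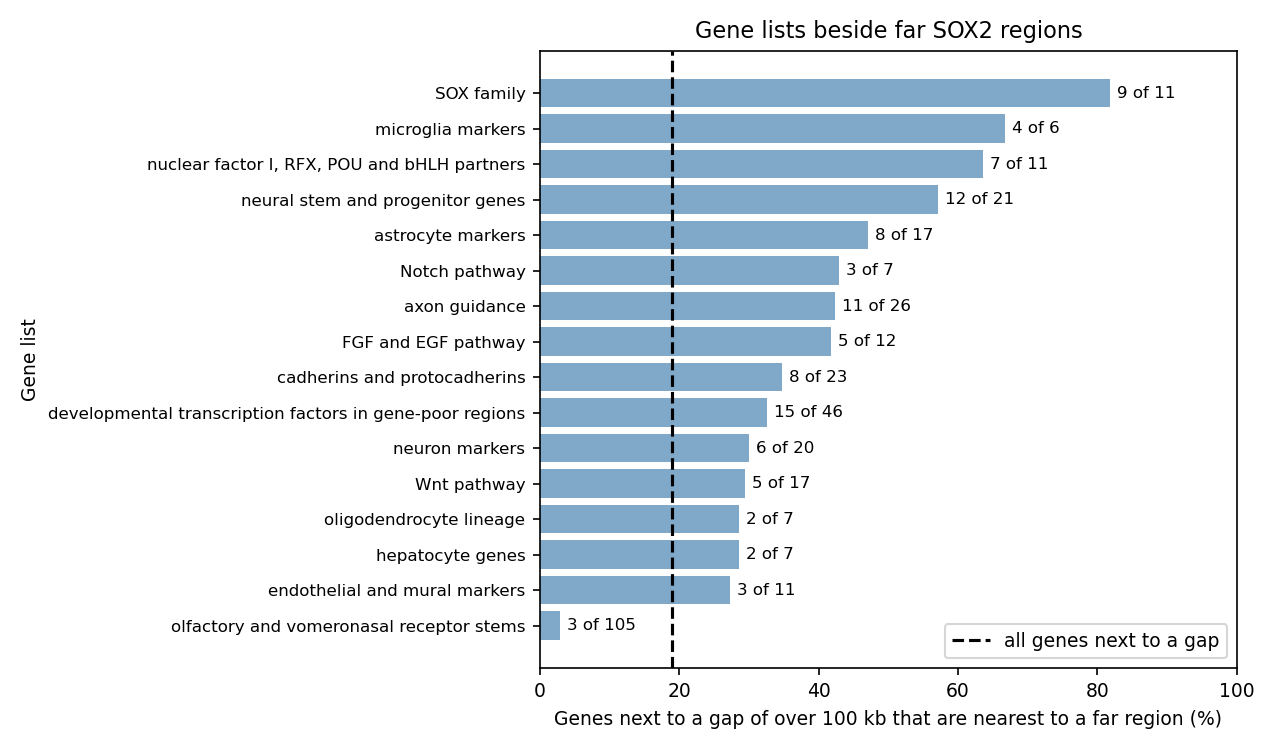
Share of the genes of each list that border a gap of over 100 kb and are the nearest gene of a far region (x axis, percent), with counts beside the bars. The dashed line is the 19.0% of all such genes; the SOX family is at 81.8% and the olfactory and vomeronasal genes at 2.86%.

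Far regions were unevenly spread over the deserts. Of 2967 gaps of over 100 kb between protein-coding genes, 753 (25.4%) held a far region, and 60 gaps with at least 5 held 431 of them (27.3%). The most were in the 1307 kb between Tle4, a Groucho corepressor gene, and Psat1, with 17 regions of 4.78 to 14.1 tags. Gaps from Ndfip2 to Spry2 and from Id2 to Rnf144a held 11 each, and the 537 kb from Pabpc6 to Qk held 10, with a median of 12.6 tags. Of 246 autosomal gaps over 1 Mb, those at chromosome starts left out, 86 held none. The longest of these, 4542 kb between the protocadherin genes Pcdh20 and Pcdh9, had 4 regions of only 1 or 2 libraries over 50 kb from genes. Gaps with a far region were longer than those without, with medians of 457 kb and 192 kb.

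Per length of sequence, deserts held fewer regions than the rest of the genome, and fewer the farther from genes. On the autosomes the far sequence of 836 Mb held 1557 far regions, or 1.86 per Mb, against 4.89 reproducible regions per Mb in the other 1564 Mb. Within the far sequence, density fell at each step from 3.05 per Mb at 50 to 75 kb, through 1.98 at 200 to 300 kb, to 0.411 beyond 1000 kb. All peaks, reproducible or not, thinned out alike, with 5.31, 5.42 and 4.76 peaks per Mb in the nearest class and 0.731, 0.7 and 0.807 in the farthest. The strength of the regions did not follow, with medians between 7.37 and 8.54 tags in the 8 distance classes. Sequence that reads cannot be placed on uniquely was not subtracted, and its part in the densities was not tested. Chromosome X held 23 far regions, 0.305 per Mb. The mice were male and carry a single X, and the part of copy number in this density was not tested.

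**Figure D5:**
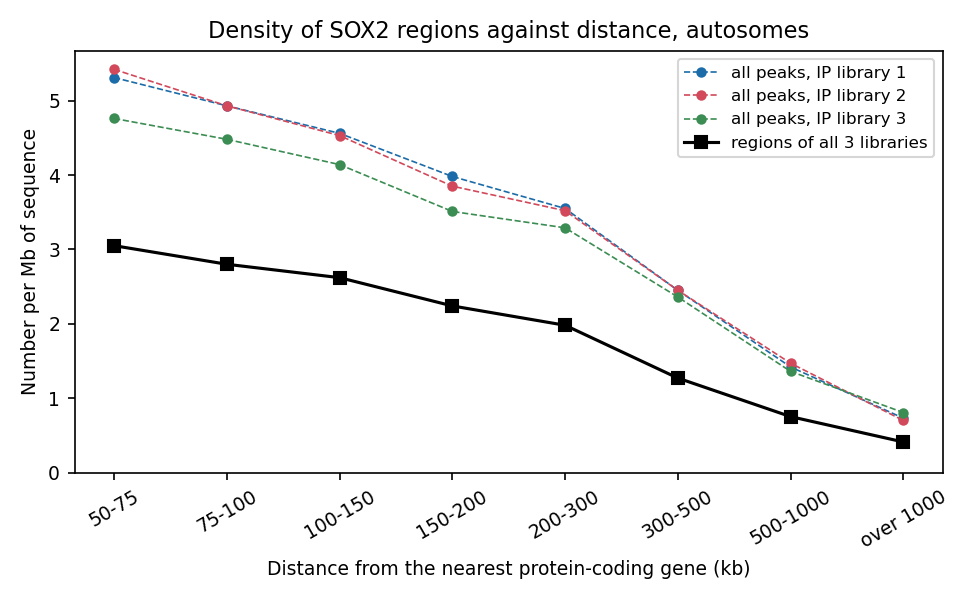
Far regions of all 3 libraries (black squares) and all far peaks of each IP library (coloured points) per Mb of autosomal sequence (y axis), by distance from the nearest protein-coding gene (x axis, kb). The black line runs from 3.05 to 0.411 per Mb.

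Neighbouring far regions often formed groups. Joined within 50 kb, the 1581 regions made 1207 chains, of which 955 were single regions, and 252 chains of at least 2 held 626 regions (39.6%). The largest, between Haao and Zfp36l2, an mRNA decay gene, put 10 regions within 159 kb, the strongest with 28.9, 30.2 and 20.5 tags. One between Mctp2 and Rgma, a guidance gene, had 7 within 53.3 kb, and its strongest is the Gm20083 region printed above. Groups of 6 lay between Foxo1 and Cog6, between Irf2bp2 and Tomm20 and between Zfp608 and Gramd3.

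Noncoding genes coincided with far regions. Of the far regions, 23.1% lay inside lncRNA spans, which took up 10.1% of the far sequence, and 7.84% (124 regions) lay within 1 kb of an lncRNA end, against 1.37% of that sequence. Far regions thin out with distance from protein-coding genes, and the part of that distance in this contrast was not tested. In the intergenic regions nearer to genes, 20.7% lay inside lncRNA spans and 11.1% within 1 kb of an end. Of the lncRNA genes, 302 held at least 1 far region, 60 at least 2 and 9 at least 4. Mir100hg, the host gene of 3 microRNAs, held 5, Gm34799 in the Qk gap 5 and Gm26843 5. The strongest far region inside Mir100hg had 23.1, 21.2 and 25.6 tags, and the neighbouring Gm35835 held 4 more, up to 24.8, 26.8 and 20.8 tags.

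MicroRNAs, short RNAs that repress messenger RNAs matched by their seed, also lie in deserts. Of 153 microRNA hairpins over 50 kb from protein-coding genes, 19 (12.4%) had a far region within 50 kb, beside 10.8% of all far sequence that lies so near to one. That sequence includes chromosome Y and the chromosome starts, left out of the densities above, which lowers the 10.8%. Within 1 kb were 3 hairpins, at 2 regions, since Mir181a-1 and Mir181b-1 adjoin the same one. The mature sequences from RefSeq (GRCm38.p6) of those discussed are shown with the seed, bases 2 to 8, in capitals, because miR-100 and miR-99a, from different deserts, share a seed.
miR-9-5p, chr13:83738821-83738843: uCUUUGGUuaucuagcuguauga
miR-125b-5p, chr9:41581940-41581961: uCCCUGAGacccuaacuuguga
miR-100-5p, chr9:41531437-41531458: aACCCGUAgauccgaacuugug
miR-99a-5p, chr16:77598940-77598961: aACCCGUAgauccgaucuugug
let-7c-5p, chr16:77599672-77599693: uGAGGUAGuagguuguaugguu
miR-181a-5p, chr1:137966468-137966490: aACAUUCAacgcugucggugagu

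Mir9-2, which makes miR-9, a microRNA of neural progenitors and neurons, lies inside C130071C03Rik, in the gap between Mef2c and Tmem161b. The far region at the start of that lncRNA gene is the one printed above, and a further region 3.07 kb from the hairpin held 17.9, 15.1 and 12.7 tags. Mir125b-1 lay 2.08 kb from a region with 11.6, 11.4 and 6.21 tags inside Mir100hg, where library 3 was low, and Mir100 48.4 kb from the same region. Mir99a and Mirlet7c-1, which have no far region within 50 kb, lie in the gap from Usp25 to Cxadr, which held 10 far regions of 5.73 to 13.8 tags, 3 of them inside Mir99ahg. Mir181a-1 lay 0.202 kb from a region with 8.53, 8.00 and 4.78 tags, 96.6 kb from Ptprc, and it is the stronger of the regions whose nearest gene is that microglia marker.

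The desert of the lncRNA gene Rmst, between Tmpo and Nedd1, held 11 far regions over 1503 kb. One inside Rmst had 15.4, 9.54 and 11.7 tags, and the strongest, inside the neighbouring Gm20757, had 18.4, 16.9 and 15.8. The means over this desert ran from 7.26 to 17.0 tags.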

How the data were processed

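Peak lists of 3 IP libraries were used, into which the input entered as the authors' control. Reads were handled with HOMER 4.7 and Bowtie 1.0.0 on mm10, per the submitters' processing notes. Peaks were called by library, per the file headers, with at least 4-fold enrichment over input and over the local 10 kb, Poisson p-values no higher than 0.0001 and an FDR of 0.001. The deposited signal is normalized tags per 10000000 and the focus ratio a deposited fraction. The fold is a ratio computed by the authors, in which input below 0.5 tags counts as 0.5. The deposited score counts tags after a cap per bp, and deposited total tags are counts in IP library 2.

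Python 3.11.15, numpy 2.4.6, pandas 2.3.3 and matplotlib 3.10.9 were used. The strongest peak of a library gave a region its value there. Distances run from region centres to spans of 21887 protein-coding genes in a RefSeq table of GRCm38.p6. Library medians were compared by an exact permutation test of class labels within libraries. Merging was tested on simulated data. No genome sequence was used here, so motifs were searched in RefSeq start windows alone. A peak needed 14, 13 and 16 tags in IP libraries 1, 2 and 3, so counting error is large for weak peaks.

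Members and gene lists were chosen with earlier results of these data known. Named genes are nearest to the 15 strongest far regions, to the strongest of up to 3 members of each list, to the 5 largest groups, to regions at noncoding genes or to those at the 50 kb limit. The gaps, start windows and microRNAs described, and further list members, were chosen after their values were seen. Alternatives covered the distance limit, the genes used, overlap, peak thresholds, libraries left out and the joining distance.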

Additional observations from a re-analysis of the deposited data

How the results depend on the processing

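The mean differences between far regions and the rest kept their sign under every alternative run. Far regions were higher in only 2 of 3 libraries for fold with peaks of at least 8-fold (0.28), and for recurrence with shared lengths of 50% (0.289) or noncoding genes counted (0.467). The differences ranged from 0.27 to 0.617 for median normalized tags, 0.28 to 1.5 for median fold, -0.016 to -0.006 for the focus ratio, 0.289 to 3.67 percentage points for recurrence and 0.669 to 3.29 points for the strongest 10%. With 3 libraries no alternative can pass a threshold. The number of far regions moved with the rule: 1037 (11.1%) at over 100 kb, 394 (4.22%) when noncoding genes count too, 1004 (17.9%) with peaks of at least 8-fold, 993 (17.2%) with the stronger peaks by score, and 2412 (16.3%) with regions of at least 2 libraries. Nearest genes numbered 582 at over 100 kb and 291 with noncoding genes. Each of these rules admits fewer regions by construction, except that of at least 2 libraries, which admits more. For the strongest 10%, the difference of 1.94 points was 0.669 with noncoding genes counted, 1.19 with peaks of at least 8-fold and 3.29 at over 25 kb. Leaving out 1 library moved the Wnt list to 8 genes without IP library 3 and the hepatocyte list to 1 without IP library 2. Regions joined within 25 or 100 kb formed 192 or 298 groups. Leaving out far regions with no base common to all libraries was added after seeing the data. The search for motifs in whole regions was not run, since no genome was used here. No paired analysis was possible because only the IP libraries carry replicate numbers, while the position classes are compared within each library. Depth limits the weakest regions, whose peaks lie near the caller's minimum.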
